A study of Mus musculus with 2 samples.

Results

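The 34 genes described here carry glucose into the cell, break it down, direct its carbon, or are induced when oxygen is short. They were chosen by gene symbol in 3 groups: 17 genes for the steps of glycolysis, with the glucose transporter Slc2a1; 5 genes that regulate the pathway or export its product (Pdk1, Pdk4, Slc16a3, Pfkfb3 and Pfkfb4); and 12 hypoxia genes (Car9, Bnip3, Ndrg1, Adm, Vegfa, Egln1, Egln3, Ankrd37, P4ha1, P4ha2, Ddit4 and Higd1a). All 34 were found among the 55450 genes of the count matrices. Aldoa has 2 entries there, and only the first, on chromosome 7, was counted.

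Glycolysis turns glucose into pyruvate in the cytosol, and Ldha reduces pyruvate to lactate, which leaves the cell through the transporter encoded by Slc16a3. In cells with enough oxygen, the prolyl hydroxylases encoded by Egln1 and Egln3 mark the alpha subunits of hypoxia-inducible factor (HIF) for destruction. When oxygen falls, the alpha subunits persist, pair with Arnt and bind short DNA elements whose core reads ACGTG or GCGTG, and most genes of the glycolytic pathway are among the known targets. Solid tumours outgrow their vessels, so that cells far from blood are known to switch these genes on together.

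The study grew EMT6 tumours, from a mouse mammary carcinoma line that the labels call triple-negative, under the skin of immunocompetent BALB/c mice, bought at a few weeks of age, that received 200000 cells each, and profiled dissociated tumours with a droplet 3′ single-cell assay that counts unique molecular identifiers (UMIs). The group named Olaparib + LLY-283 received the PRMT5 inhibitor LLY-283 at 50 mg/kg on a cycle of 3 days on and 4 days off and the PARP inhibitor Olaparib at 50 mg/kg every day. The group named Combo received both drugs in the same way and, in addition, an antibody against PD-1 at 200 µg every 3 days, so the libraries differ by the antibody and share both inhibitors. Each group is 1 library made from the pooled tumours of 3 mice, chosen without necrosis or ulcers, and no untreated tumour was analysed here. A difference between the libraries therefore has no replicate behind it, all intervals given below are 95% intervals that cover counting error only, and the antibody cannot be told apart from the pool of mice, the library or its depth.

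Olaparib + LLY-283 held 16115 cells with 147214934 UMIs and Combo 7542 cells with 162522700 UMIs; 39 cell barcodes occurred in both. Cells with 20% or more mitochondrial UMIs numbered 86 and 1586, and were set aside. Clustering gave 9459 and 2215 tumour-like cells, called so because their Krt8 and Krt18 transcripts, keratins of epithelial cells, summed to 919 and 899 UMIs per 1000000 UMIs of the class (CPM); Krt8 alone made up most of the 7 epithelial markers searched, and Cldn4 was at 0 in Combo. Tumour-like cells had a median of 9078 UMIs in Olaparib + LLY-283 and 51342 in Combo, so comparisons between libraries were made after each cell had been thinned at random to the same number of UMIs. The named classes other than tumour cells held between 9 and 844 cells per library, the smallest being the dendritic (DC-like) cells with 15 and 9 cells. In a summed profile, fewer transcripts per cell and fewer cells that carry them cannot be told apart.

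Among tumour-like cells, glycolysis genes and hypoxia genes were high in the same cells of both libraries. Among the 22 glycolysis genes and regulators the highest was Slc2a1 (ENSMUSG00000028645, chr4:119108711-119137983, + strand of mm10), the transporter that admits glucose, whose level varied with a score of the 12 hypoxia genes at Pearson's r = 0.527 across 7844 cells of Olaparib + LLY-283 and 0.575 across 2164 cells of Combo. Over the 22 glycolysis genes and regulators the median r was 0.193 and 0.293, against −0.022 and −0.0213 over 5497 and 5653 other genes, and 18 and 19 of the 22 lay over 0.1, beside 5.75% and 7.04% of the other genes. Other genes needed at least 0.1 UMIs per thinned cell; of the 18 glycolysis genes and regulators that reached it in each library (all but Pfkm, Pdk4, Pfkfb3 and Pfkfb4), 16 and 18 lay over 0.1. The score is the mean of standardised log values in cells thinned to 5000 UMIs each; cells of one library share that library, its free RNA and an equal depth, so each r is a description across cells and carries no test.

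Within the pathway, r was not even from step to step, but r is lower for a gene with few UMIs, and the genes run from 19.1 UMIs per thinned cell for Gapdh in Olaparib + LLY-283 to 0.466 for Hk2 and 0.0663 for Pfkm, so the order of r is not an order of response. The middle steps stood highest after Slc2a1: Gapdh, which makes the first reducing equivalents of the pathway, had r = 0.477 and 0.505, and Pgk1, which yields its first ATP, had 0.44 and 0.466. Aldoa, the aldolase that splits the sugar, had 0.391 in both libraries, and Tpi1, which interconverts the products of that split, had 0.322 and 0.379. Of the hexokinases that trap glucose in the cell, Hk2 had 0.291 and 0.328 and Hk1 0.186 and 0.204. Ldha had 0.269 and 0.31, Pkm 0.2 and 0.32, and Eno1 only 0.0505 and 0.105, whereas its paralogue Eno2 had 0.251 and 0.323. The 3 phosphofructokinase genes, which encode subunits of the same rate-limiting enzyme, also differed: Pfkp had 0.279 and 0.308, Pfkl 0.163 and 0.257, and the muscle form Pfkm −0.0124 and −0.0179. Reads of Gapdh, Eno1, Ldha and several other glycolysis genes can be shared with processed pseudogenes, so their counts are less certain than those of Slc2a1 or Hk2.

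Among the regulators r also differed from gene to gene. Pdk1, a kinase that limits the oxidation of pyruvate in the mitochondrion, had r = 0.181 and 0.278, and Pfkfb3, which makes an activator of phosphofructokinase, had 0.175 and 0.234. Slc16a3, the lactate exporter, had 0.0777 and 0.111. Pdk4 had 0.113 and 0.0553. Pfkfb4, with 0.0133 and 0.0097 UMIs per thinned cell, was too sparse to read, at −0.0164 and 0.00108.

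Each hypoxia gene, set against a score of the others, had r between 0.186 and 0.498 in Olaparib + LLY-283 and between 0.247 and 0.597 in Combo, with medians of 0.341 and 0.423. Adm, which encodes the vasodilator peptide adrenomedullin, was highest with 0.498 and 0.597. Next came, in an order that differed between the libraries, Higd1a, a mitochondrial protein, with 0.469 and 0.508, Ndrg1, a stress-response gene, with 0.46 and 0.514, and Bnip3, a mitophagy receptor, with 0.447 and 0.527. The lowest were Ddit4, an inhibitor of mTORC1, with 0.186 and 0.25, P4ha1, a subunit of the enzyme that hydroxylates collagen, with 0.188 and 0.262, and Egln3 with 0.199 and 0.247. Across all pairs of the 34 genes the closest was Gapdh with Pgk1, at 0.477 and 0.557, and the closest pair of a glycolysis gene and a hypoxia gene was Slc2a1 with Adm, at 0.441 and 0.493.

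**Figure D1:**
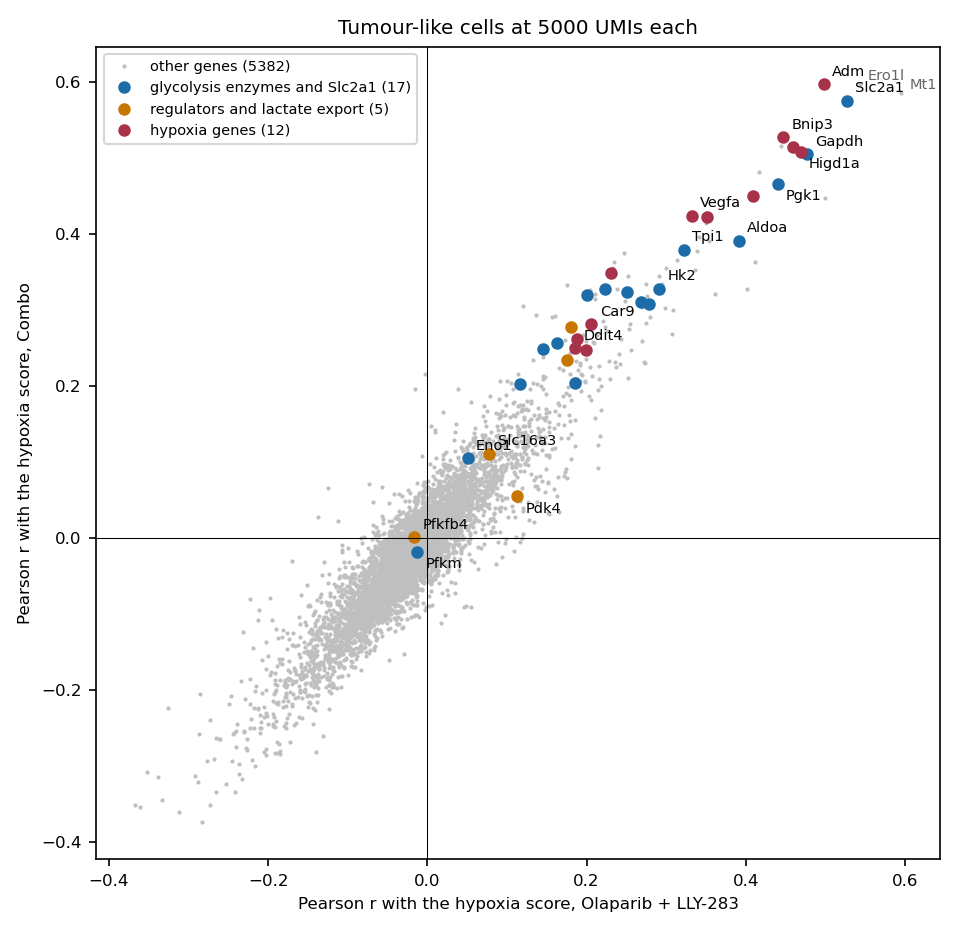
Each point is a gene in tumour-like cells thinned to 5000 UMIs each; the horizontal axis gives its Pearson r with the hypoxia score in Olaparib + LLY-283 and the vertical axis the same in Combo, with hypoxia genes correlated with a score of the others. Most coloured points sit in the upper right, with Slc2a1 at 0.527 and 0.575, while Pfkm and Pfkfb4 lie near 0 among the grey points of other genes.

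The difference in level along the score was large for some genes and small for others. In the 25% of cells with the highest score, Slc2a1 stood at 528 CPM, against 82.5 CPM in the lowest 25% of Olaparib + LLY-283, and at 623 against 86.1 CPM in Combo. Eno2 stood at 62.3 against 10.3 CPM and at 88.7 against 13.3 CPM, and Hk2 at 175 against 50.2 CPM and at 194 against 47.0 CPM. Gapdh differed by a smaller factor, 5089 against 2857 CPM and 6534 against 3228 CPM, and Eno1 by less still, 664 against 586 CPM and 852 against 665 CPM. Pfkm was as high in the lowest 25%, with 12.9 CPM in both libraries, as in the highest, with 11.2 and 12.6 CPM. Summed over the 22 glycolysis genes and regulators, the level was 11449 CPM in the lowest 25% and 18691 in the highest in Olaparib + LLY-283 (ratio 1.63), and 12243 and 22685 CPM in Combo (ratio 1.85). The score is continuous, so each set of 25% (1961 and 541 cells) is a range and not a type of cell, and 398 and 98 cells lay within 0.1 SD of the upper limit.

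Other pathways took other directions along the same score. The summed score of 24 genes of the respiratory chain and citric acid cycle had r = −0.402 and −0.459 with the hypoxia score, and none of the 24 genes had r over 0.1 in either library. The S phase score had −0.272 and −0.328 and the G2M score −0.177 and −0.199. Of known HIF targets outside the 34 genes, 12 of 18 and 15 of 19 had r over 0.1, again beside 5.75% and 7.04% of all other genes, led by Ero1l, an oxidase of the endoplasmic reticulum, with 0.543 and 0.597, and by Mxi1, an antagonist of Myc, with 0.417 and 0.482. Of the genes that control HIF itself, Hif1a had 0.052 and 0.028, whereas Cited2, which competes with HIF for its coactivator, had 0.274 and 0.334. Of 14 further genes of glucose metabolism, 3 had r over 0.1 in both libraries, and these were the genes of glycogen metabolism Gbe1, Gys1 and Pgm1; the lactate transporter Slc16a1 had −0.0677 and −0.091. By the lower r of both libraries, the 10 genes outside the 34 most like the score, of 5382 measured in both, were Mt1, Ero1l, Mt2, Hilpda, Mxi1, Lgals3, Tiparp, F3, Bsg and Mif, with Mt1, a metal-binding metallothionein, at 0.596 and 0.585. Depth moved with the score as well: the number of UMIs per cell before thinning, on a log scale, had r = −0.139 in Olaparib + LLY-283 and −0.346 in Combo, and the mitochondrial share −0.17 and 0.0414; their part in the result was not tested.

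Because the HIF core is known, the letters upstream of the members were read from RefSeq sequences of GRCm38.p6, the same assembly as mm10. A window of 250 bases before the start site was available for 33 of the 34 genes, Ndrg1 being the exception, and ACGTG or GCGTG occurred on either strand in at least 1 window of 30 of them (90.9%). The share was 41.5% over all 27025 genes with a window and 63.8% over the genes measured in tumour-like cells, and genes with several start sites had several chances. All 11 hypoxia genes with a window and all 5 regulators held the letters, as did 14 of 17 glycolysis genes; Eno2, Gpi1 and Tpi1 did not. The palindrome CACGTG, read by Myc-type factors and overlapping ACGTG on both strands, occurred in 4 members (12.1%), near the 10.1% of genes measured in tumour-like cells, and in 6.86% of all genes with a window. A match of this length describes letters and is not evidence of binding.

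The windows below belong to 6 of the members with r over 0.4 in both libraries, printed 5′ to 3′ on the strand of the gene with the core letters in capitals (CACGT and CACGC are the same cores read on the other strand), and stretches that GENCODE counts as exon were left off. They lie at chr4:119108495-119108710 (+) for Slc2a1, chr6:125165774-125166023 (−) for Gapdh, chrX:106186850-106187099 (+) for Pgk1, chr7:110627407-110627656 (+) for Adm, chr7:138909520-138909756 (−) for Bnip3 and chr8:45999868-46000100 (−) for Ankrd37. All are upstream of a RefSeq start site and hold no exon base of the GENCODE annotation. Higd1a, with r of 0.469 and 0.508, also had a window with the core letters, which is not printed here.
Slc2a1: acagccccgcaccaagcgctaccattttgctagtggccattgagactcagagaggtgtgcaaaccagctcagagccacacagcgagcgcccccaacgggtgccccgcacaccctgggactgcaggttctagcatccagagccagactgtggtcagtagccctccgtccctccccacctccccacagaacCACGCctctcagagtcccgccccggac
Gapdh: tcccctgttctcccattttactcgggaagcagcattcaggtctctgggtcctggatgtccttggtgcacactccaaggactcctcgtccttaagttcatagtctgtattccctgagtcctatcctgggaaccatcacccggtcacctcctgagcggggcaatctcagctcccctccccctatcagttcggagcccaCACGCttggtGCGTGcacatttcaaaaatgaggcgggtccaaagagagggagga
Pgk1: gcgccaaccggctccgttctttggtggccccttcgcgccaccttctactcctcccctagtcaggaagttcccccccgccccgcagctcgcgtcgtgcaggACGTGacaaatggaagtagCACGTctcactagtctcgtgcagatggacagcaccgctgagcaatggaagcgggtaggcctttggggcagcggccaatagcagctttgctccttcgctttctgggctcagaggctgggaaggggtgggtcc
Adm: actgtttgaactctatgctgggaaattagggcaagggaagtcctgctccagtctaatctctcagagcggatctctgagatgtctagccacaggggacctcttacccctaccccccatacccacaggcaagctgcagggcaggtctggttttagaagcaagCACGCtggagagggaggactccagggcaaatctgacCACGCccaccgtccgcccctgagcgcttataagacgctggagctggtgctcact
Bnip3: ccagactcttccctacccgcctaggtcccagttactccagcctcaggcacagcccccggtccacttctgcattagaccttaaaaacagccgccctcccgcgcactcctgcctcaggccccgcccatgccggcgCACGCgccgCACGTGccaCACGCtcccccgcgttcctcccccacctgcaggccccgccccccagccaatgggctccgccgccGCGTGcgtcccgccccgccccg
Ankrd37: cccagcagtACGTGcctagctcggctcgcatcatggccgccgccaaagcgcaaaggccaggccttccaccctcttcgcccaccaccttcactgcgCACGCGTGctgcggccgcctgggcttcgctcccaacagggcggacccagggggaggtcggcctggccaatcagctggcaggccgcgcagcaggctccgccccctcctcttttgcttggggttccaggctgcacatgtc

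A further pair of windows is shown, of Pfkm and of Eno2. That of Pfkm at chr15:98092339-98092588 (+) is the first of several for this gene and holds the core in both directions. Its r was −0.0124 and −0.0179, on 0.0663 and 0.067 UMIs per thinned cell. That is under the 0.1 UMIs asked of other genes, so this r cannot be set against the letters. The window of Eno2 at chr6:124769674-124769923 (−) holds no core, and r was 0.251 and 0.323.
Pfkm: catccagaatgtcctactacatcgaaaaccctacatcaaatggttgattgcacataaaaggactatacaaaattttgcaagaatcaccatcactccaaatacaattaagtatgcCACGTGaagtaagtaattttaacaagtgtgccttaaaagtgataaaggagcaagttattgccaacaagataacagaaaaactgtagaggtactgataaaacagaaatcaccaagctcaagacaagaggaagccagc
Eno2: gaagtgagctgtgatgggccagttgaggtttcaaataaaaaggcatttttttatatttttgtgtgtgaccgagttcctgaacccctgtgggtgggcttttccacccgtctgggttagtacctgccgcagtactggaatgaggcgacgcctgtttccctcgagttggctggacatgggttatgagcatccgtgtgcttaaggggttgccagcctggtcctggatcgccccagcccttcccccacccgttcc

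Tumour-like cells fell into 10 clusters, and the level of the hypoxia genes differed between them. The score also varied inside clusters: in Olaparib + LLY-283 its SD was 0.466 in cluster 3 and 0.436 in cluster 0, around means of 0.582 and 0.306. The 34 genes were left out of the genes used for clustering and of the leading genes named below. So were the further genes of glucose metabolism, the genes that control HIF and the known HIF targets listed for comparison. Hilpda, F3 and Mt1 were not left out. Their r with the score was 0.445 and 0.515, 0.351 and 0.415, and 0.596 and 0.585, so clusters and score are not separate readings. Cluster 3, led by Pgf, Dusp4, F3 and Hilpda, carried 4092 CPM of the summed hypoxia genes in Olaparib + LLY-283 and 5334 CPM in Combo, and 72.3% and 81.1% of its cells were in the highest 25% of the score. Cluster 0, led by Klk10 and Mt1, came next with 2941 and 3844 CPM, and 49.2% and 56.4% of its cells were in the highest 25%. Among the low clusters was cluster 11, led by the histone genes of S phase, with 1048 and 1241 CPM; in Combo cluster 4, with 1228 CPM, was as low. The order of the summed glycolysis genes differed at the top: cluster 0 had 18324 and 24044 CPM and cluster 3 had 17573 and 21285 CPM, while cluster 11 had 12222 and 14398 CPM. Cluster 0 made up 14.1% of the thinned cells in Olaparib + LLY-283 and 4.67% in Combo, and cluster 3 made up 12.5% and 13.0%.

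**Figure D2:**
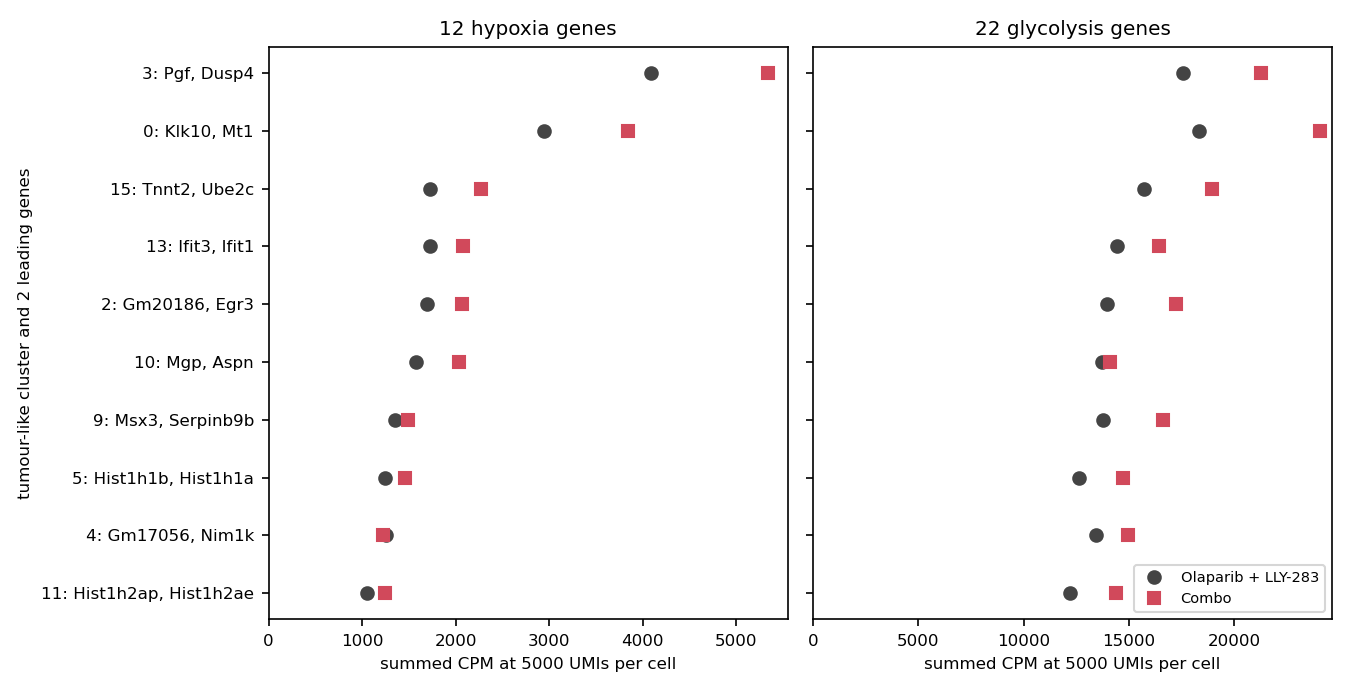
Summed CPM of the 12 hypoxia genes (left) and of the 22 glycolysis genes and regulators (right) on the horizontal axes, by tumour-like cluster with its 2 leading genes on the vertical axis, in cells thinned to 5000 UMIs each; circles are Olaparib + LLY-283 and squares Combo, 1 value each. Clusters 3 and 0 stand apart in both libraries, at 4092 and 2941 CPM of hypoxia genes in the first and 5334 and 3844 CPM in the second.

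Across cell classes the summed level of the 34 genes was higher in tumour-like cells than in every other named class except the myogenic-like cells, in both libraries. Tumour-like cells stood at 16614 CPM (16589 to 16639) in Olaparib + LLY-283 and at 18467 CPM (18443 to 18491) in Combo. Myogenic-like cells, led by the skeletal muscle genes Acta1, Tnnt3 and Myl1, stood at 18127 CPM in 40 cells and 31088 CPM in 50 cells. Neutrophil-like cells had 12808 and 10729 CPM, macrophage-like cells 11678 and 11021, monocyte-like cells 13013 and 13387, CAF-like cells (fibroblasts of the tumour) 11703 and 12491, and T-like cells 8591 and 10943. The hypoxia genes alone did not follow this order. They summed to 1919 and 2374 CPM in CAF-like cells, against 1911 and 1924 CPM in tumour-like cells. In every other named class their sum was below the tumour-like level, with endothelial-like cells close to it at 0.96 and 0.983 times. Krt8 and Krt18, which leukocytes should lack, serve as a reading of tumour RNA in other cells; they stood in neutrophil-like cells at 0.454 and 0.251 times their level in tumour-like cells and in macrophage-like cells at 0.238 and 0.115 times. Of the 34 genes, 29 and 33 exceeded that keratin ratio in neutrophil-like cells and all 34 did in macrophage-like cells. How many of all genes exceeded it was not counted, so this and the counts that follow do not set the members apart from other genes. The reading was highest in Olaparib + LLY-283 for the myogenic-like cells, at 0.788 (0.184 in Combo), where 12 and 30 of the 34 genes exceeded it, and for the endothelial-like cells, at 0.727 (0.116 in Combo), where 24 and 31 did; in CAF-like cells it was 0.369 and 0.267, and 33 did in both.

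Enzyme forms known from muscle were high in the myogenic-like cells. Aldoa stood there at 4011 CPM (3650 to 4397) and 11251 CPM (10547 to 11990), against 1479 and 1531 CPM in tumour-like cells. Pfkm stood at 106 CPM (54.8 to 185) and 308 CPM (201 to 451), against 12.9 and 13.3 CPM. Pdk4, which spares glucose in muscle, stood at 26.5 CPM (5.47 to 77.5) and 47.4 CPM (12.9 to 121), against 12.4 and 6.46 CPM, so that only in Combo did the intervals lie apart. Gapdh and Ldha were also highest in this class in both libraries, whereas the hypoxia genes together stood there at 0.458 and 0.548 times the tumour-like level.

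Neutrophil-like cells differed from tumour-like cells in both directions within each gene group. The 5 regulators summed to 629 and 1071 CPM in neutrophil-like cells, 3.19 and 3.96 times their level in tumour-like cells, but only Slc16a3, Pfkfb3 and Pfkfb4 were above that level, while Pdk1 stood at 0.849 and 0.611 times and Pdk4 at 0.373 and 0.185 times. The 17 glycolysis genes together stood at 0.722 and 0.515 times the tumour-like level, with Slc2a1, Hk2 (2.14 and 1.14 times) and Pfkp (2.23 and 1.82 times) above it. Slc16a3 had 456 CPM (395 to 524) and 787 CPM (745 to 830), against 127 and 203 CPM in tumour-like cells. Pfkfb3 had 111 CPM (81.5 to 147) and 207 CPM (186 to 230), against 9.03 and 13.1 CPM. The oxygen sensor Egln3 had 159 and 172 CPM, against 44.0 and 43.1, and Slc2a1 378 and 382 CPM, against 238 and 247. For these 4 genes the intervals of neutrophil-like and tumour-like cells did not overlap in either library. How many of all other genes lay apart in this way was not counted, so this does not set the 4 genes apart. Slc2a1, Slc16a3 and Egln3 were highest in neutrophil-like cells among all named classes in both libraries.

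Single genes stood out in other classes. P4ha2, a subunit of the enzyme that hydroxylates collagen, was highest in CAF-like cells with 220 CPM (193 to 249) and 300 CPM (272 to 330), against 52.4 and 60.5 CPM in tumour-like cells, and P4ha1 and Vegfa, the endothelial growth factor, were highest there as well. In endothelial-like cells Ndrg1 had 247 CPM (189 to 318) and 703 CPM (568 to 860), the latter from 15 cells, against 181 and 172 CPM. Eno1 was highest in monocyte-like cells with 774 and 950 CPM, and the next class down, with 636 CPM in osteoclast-like and 807 CPM in T-like cells, differed between the libraries. The genes highest in tumour-like cells in both libraries were Pfkl, Pgk1, Pgam1, Pdk1, Egln1 and Higd1a. Of these Pdk1 was hardly above monocyte-like cells in Combo, with 45.1 against 44.8 CPM, and Egln1 hardly above endothelial-like cells in the other library, with 271 against 268 CPM. Car9, a carbonic anhydrase at the cell surface, and Adm were lower in macrophage-like cells than in tumour-like cells. Car9 had 12.6 and 8.64 CPM there, against 29.9 and 26.7 CPM, and Adm had 55.7 and 29.4 CPM, against 192 and 232 CPM. The macrophage-like class held 391 and 313 cells. Unnamed clusters led by Fabp5 and Mmp12 (297 and 22 cells), by Ccr2 and Ms4a7 (245 and 40) and by Mmp12 and Slc7a2 (123 and 149) entered no class. The comparisons of classes do not cover them.

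**Figure D3:**
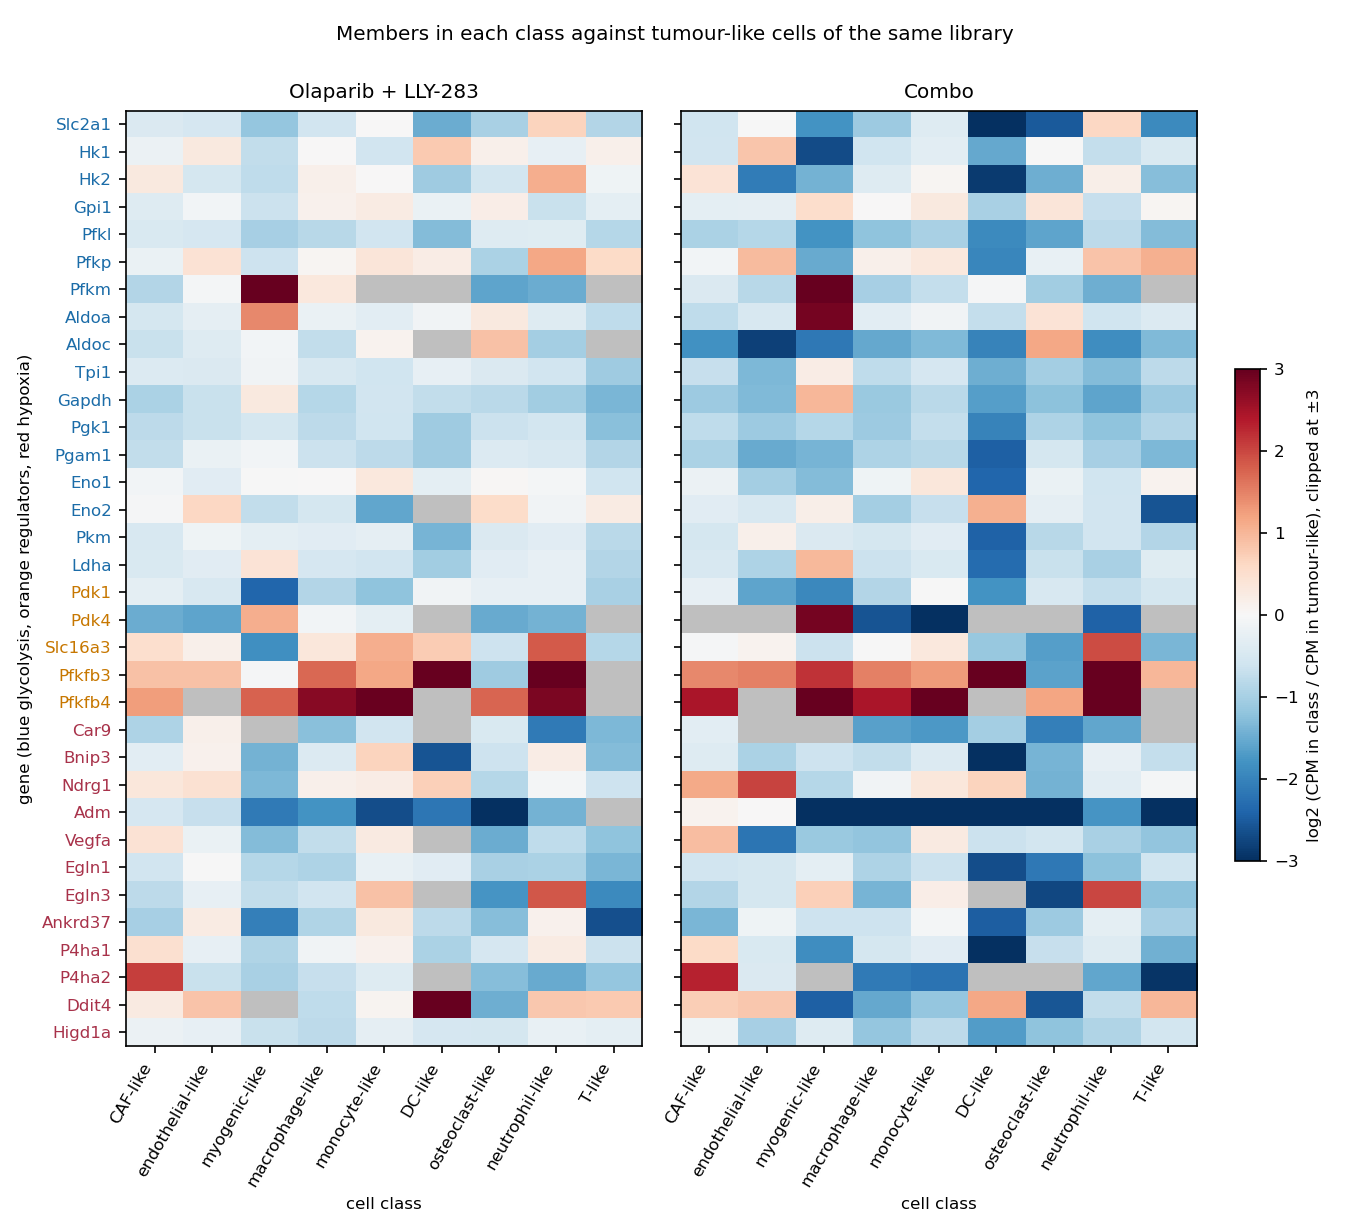
For each gene (vertical axis, coloured by group) and each named class (horizontal axis), the log2 ratio of its CPM in that class to its CPM in tumour-like cells of the same library, left Olaparib + LLY-283 and right Combo; red is higher, blue lower, values are clipped at 3 either way, and grey marks genes with no UMI in the class. Slc16a3 and Egln3 are red in neutrophil-like cells, P4ha2 in CAF-like cells and Aldoa and Pfkm in myogenic-like cells of both libraries.

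At equal depth the tumour-like cells of Combo carried slightly more of the 34 genes than those of Olaparib + LLY-283. Thinned to 5000 UMIs per cell, which kept 7844 and 2164 cells and left out 1615 and 51, the summed level was 16772 CPM in Olaparib + LLY-283 and 19254 CPM in Combo, a ratio of 1.15. The ratio was 1.15 for the 17 glycolysis genes, 1.13 for the hypoxia genes and 1.47 for the 5 regulators, which went from 198 to 290 CPM. Summed over all tumour-like cells and all UMIs, the hypoxia genes were nearly level, at 1911 CPM in Olaparib + LLY-283 and 1924 CPM in Combo. On that sum the 17 glycolysis genes stood at 14506 and 16272 CPM and the 5 regulators at 197 and 271 CPM. The median log2 ratio of the 34 genes was 0.19, with the lowest at −0.65 and the highest at 0.90, beside 0.06 over the 10865 genes measured. Thinned to 1000 UMIs per cell, which kept 9414 and 2206 cells, the median of the members measured was 0.15, beside 0.05 over 8062 genes. For the 12 hypoxia genes the median was 0.09 at 1000 UMIs and 0.18 at 5000 UMIs. A gene was counted as different where the thinned levels were at least 1.5-fold apart: 4 of the 34 were higher in Combo (Aldoc, Slc16a3, Pfkfb3 and Adm), where 3.38% of all genes measured were, and 1 was lower (Pdk4), where 1.77% were.

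Those 5 genes were as follows. Pfkfb3 had 9.05 CPM (8.13 to 10.0) in Olaparib + LLY-283 and 16.8 CPM (14.5 to 19.4) in Combo, a log2 ratio of 0.90 (0.63 to 1.16). Slc16a3 had 126 CPM (122 to 129) and 205 CPM (197 to 214), a log2 ratio of 0.71 (0.64 to 0.78). For all 5 genes the interval of the log2 ratio excluded 0, but how many of all genes measured did so was not counted. Aldoc, an aldolase known from brain, had 39.1 and 59.9 CPM, a log2 ratio of 0.62 (0.48 to 0.75), and Adm had 198 and 301 CPM, a log2 ratio of 0.61 (0.55 to 0.67), so that both stood just past 1.5-fold. Of 17 settings Aldoc passed it in 6 and Adm in 9: both calls were lost at clustering resolution 2 (0.56 for each), with classes from marker UMIs per cell (0.53 and 0.51) and without thinning (0.48 and 0.27), and Slc16a3 passed in 15. Pdk4 had 13.1 and 8.32 CPM, a log2 ratio of −0.65 (−0.998 to −0.333), on 515 and 90 UMIs. Just inside the limit stood Ddit4, with 48.2 and 71.7 CPM and a log2 ratio of 0.57 (0.45 to 0.69), and P4ha1, with 172 and 241 CPM and a log2 ratio of 0.49 (0.42 to 0.55).

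The steps of glycolysis differed less. Gapdh had 3813 and 4673 CPM (log2 ratio 0.29), Tpi1 1019 and 1279 CPM (0.33), Pfkl 215 and 266 CPM (0.31), Eno1 631 and 762 CPM (0.27) and Pkm 1671 and 1942 CPM (0.22). Ldha, with 1754 and 1812 CPM (0.05), Pgk1, with 1540 and 1634 CPM (0.09), and Aldoa, with 1511 and 1607 CPM (0.09), were close to the median of all genes. Pfkp, with 115 and 113 CPM (−0.03), and Pfkm, with 13.3 and 13.4 CPM (0.02), had intervals that included 0. Among the hypoxia genes Higd1a, with 501 and 475 CPM (−0.08), and Egln1, with 279 and 271 CPM (−0.04), stood on the lower side, and Vegfa, with 116 and 121 CPM (0.06), and Car9, with 30.4 and 32.5 CPM (0.10), had intervals that included 0. Inside the tumour-like clusters Higd1a was higher in Combo in 6 of 10 and Egln1 in 8 of 10. Their mean log2 ratios over clusters were 0.08 and 0.07, so the lower side did not hold within most clusters.

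The higher side did not rest on 1 cluster. Slc16a3, Pfkfb3, Adm, Aldoc, Ddit4, P4ha1, Ankrd37, Ndrg1, Slc2a1, Gapdh, Tpi1, Gpi1, Pfkl and Pkm were each higher in Combo in 10 of 10 tumour-like clusters, and Pdk4 was lower in 8 of 10, with a mean log2 ratio of −0.13 over clusters. How many of all genes measured were higher in every cluster was not counted. The clusters share 1 library per group and are not replicates, and cluster 15 held only 30 cells in Combo. Averaged over clusters with equal weight, the log2 ratio was 0.93 for Adm, 0.68 for Ddit4, 0.63 for Slc16a3 and 0.57 for Aldoc. Neutrophil markers moved the same way as Slc16a3 and Pfkfb3: all 8 were found in the thinned tumour-like cells and none was at 0, and they summed to 185 CPM in Olaparib + LLY-283 and 241 CPM in Combo, S100a9 being the highest with 101 and 131 CPM. In neutrophil-like cells themselves these markers summed to 89220 and 111600 CPM. The part of neutrophil RNA in the levels of Slc16a3 and Pfkfb3 was not tested. Macrophage markers, also 8 of 8 found, summed to 75.4 and 88.8 CPM, and T cell markers to 5.30 and 4.90 CPM with Cd4 and Cd8a at 0. A selection added after seeing the data kept the 3629 and 599 cells without a UMI of a neutrophil, monocyte or macrophage marker. Fn1 and Apoe, on those marker lists, were not counted, and Fn1 stood at 870.5 and 803.6 CPM in the thinned tumour-like cells. In the kept cells Slc16a3 and Pfkfb3 were at least 1.5-fold higher in Combo, beside 3.55% of all genes, and no member was lower, beside 2.05%. Whether free leukocyte RNA remained in the kept cells was not tested. Aldoc, Adm and Pdk4 were within 1.5-fold there, with log2 ratios of 0.57, 0.35 and −0.41. Thinned to 2000 UMIs per cell, none of the 34 was 1.5-fold higher, beside 3.03% of all genes, Pdk4 was lower, beside 1.83%, and the log2 ratio of Slc16a3 was 0.56. Thinned to 1000 UMIs per cell, 1 of 33 members measured was 1.5-fold higher, beside 260 of 8062 genes, and 1 was lower, beside 168.

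**Figure D4:**
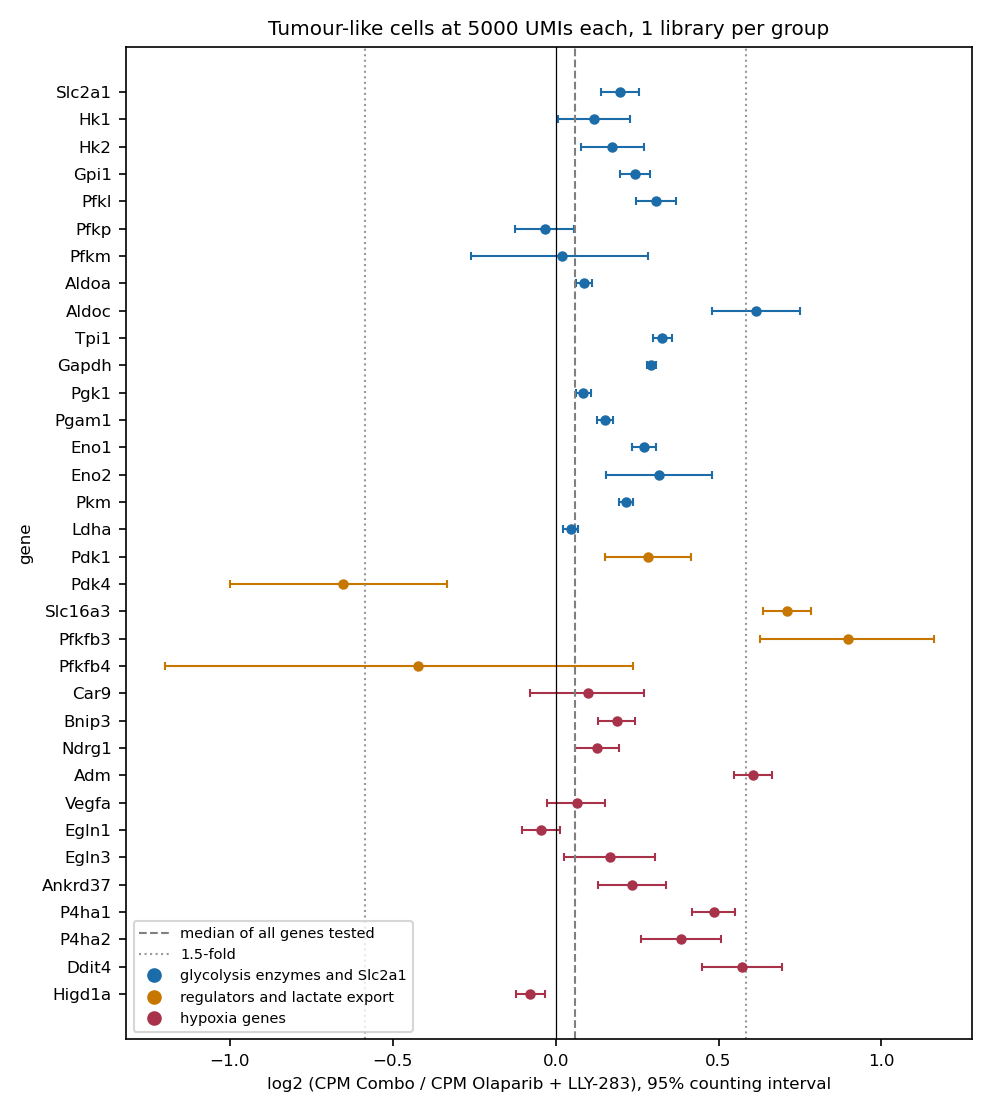
Log2 ratio of CPM in Combo to CPM in Olaparib + LLY-283 (horizontal axis) for each of the 34 genes (vertical axis, coloured by group) in tumour-like cells thinned to 5000 UMIs each; bars are 95% counting intervals from 1 library per group, the dashed line is the median of all genes measured and the dotted lines mark 1.5-fold. Most points lie right of 0, and Pfkfb3 (0.90), Slc16a3 (0.71), Aldoc (0.62) and Adm (0.61) pass the right dotted line.

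Depth before thinning ran with these genes inside each library. With tumour-like cells cut into 4 depth groups of equal size by their own UMI number and thinned to 2000 UMIs, the 12 hypoxia genes summed to 2471, 2143, 1933 and 1697 CPM from the shallowest to the deepest group of Olaparib + LLY-283 and to 3182, 2446, 1715 and 1484 CPM in Combo. In both libraries the level was lower in each deeper group. Adm had 338 CPM in the shallowest and 164 CPM in the deepest depth group of Olaparib + LLY-283 and 553 and 133 CPM in Combo, and Slc2a1 had 353 and 198 CPM and 468 and 163 CPM. The enzymes differed among themselves. Ldha had 1736 and 1775 CPM and 1755 and 1745 CPM, and Eno1 596 and 603 CPM and 764 and 742 CPM, whereas Eno2 was 2.11 and 3.36 times as high in the shallowest as in the deepest group and Pgk1 1.11 and 1.32 times. Of the members with at least 100 UMIs in these groups, 30 of 32 and 27 of 28 were higher in the shallowest than in the deepest depth group, beside 51.8% and 42.9% of all such genes. The Krt8 and Krt18 level showed no such order, with 891 CPM in the shallowest and 943 in the deepest depth group of Olaparib + LLY-283 and 830 and 840 CPM in Combo.

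The number of genes past 1.5-fold between the libraries differed with the depth of the cells kept. The shallowest depth group of Combo had a median of 30971 UMIs, above the 18254 UMIs of the deepest depth group of Olaparib + LLY-283. Among cells of 20000 to 40000 UMIs in both libraries, 810 and 470 cells, a selection added after seeing the data, 18 of the 34 genes were at least 1.5-fold higher in Combo, beside 9.47% of the 6302 genes measured there, and none was lower, beside 8.24%. The median log2 ratio of the members was 0.89, and that of all genes 0.01. That range takes deep cells of Olaparib + LLY-283 and shallow cells of Combo. Within it the median depth before thinning still differed, at 24438 UMIs in Olaparib + LLY-283 and 33222 in Combo. The part of this choice of cells in the 18 genes was not tested. Thinning to 5000 UMIs kept 7844 and 2164 cells and gave a median log2 ratio of 0.19; the part of cell size, cell cycle and library quality in this was not tested.

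**Figure D5:**
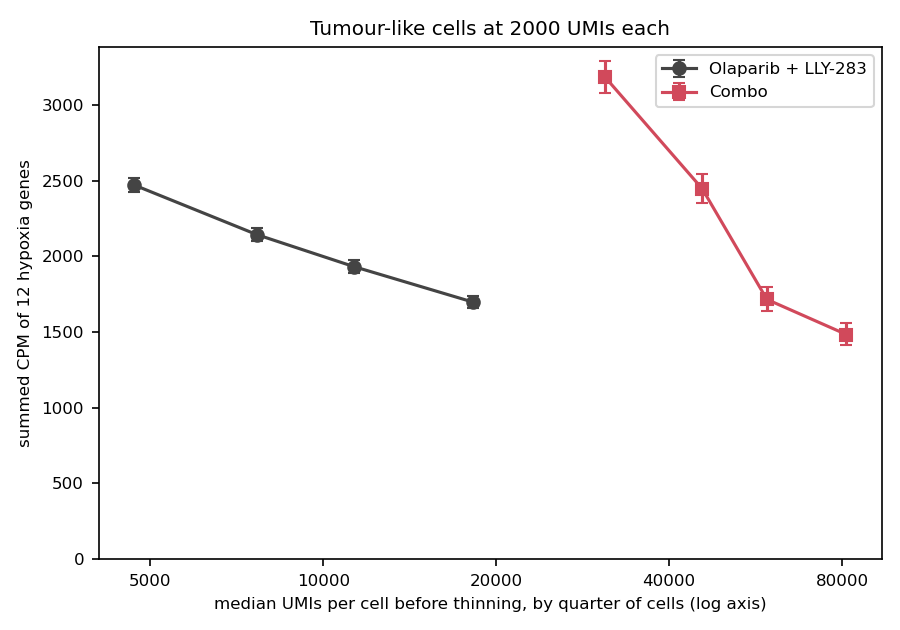
Summed CPM of the 12 hypoxia genes (vertical axis, 95% counting intervals) in tumour-like cells thinned to 2000 UMIs each, against the median UMIs per cell before thinning of each depth group (horizontal log axis). Both lines fall from left to right, from 2471 to 1697 CPM in Olaparib + LLY-283 and from 3182 to 1484 CPM in Combo, and the depth medians of the libraries do not overlap.

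In leukocytes the same comparison could be made for fewer genes. In macrophage-like cells thinned to 1000 UMIs (357 and 311 cells), 13 of the 34 genes had enough UMIs; Slc16a3 alone was at least 1.5-fold higher in Combo, with 134 and 219 CPM and a log2 ratio of 0.70 (0.15 to 1.27), beside 2.23% of all genes measured there, and none was lower, beside 3.2%. In neutrophil-like cells thinned to 1000 UMIs only 37 cells of Olaparib + LLY-283 remained against 738 of Combo, with 3 of 19 genes higher, beside 31.5% of all genes, and 3 lower, beside 17.6%. Thinned to 500 UMIs, a depth added after seeing the data, 622 and 844 cells remained; 2 of 20 genes were higher, beside 20.1% of all genes, and 4 were lower, beside 16.7%. The higher genes were Slc16a3, with 444 and 761 CPM and a log2 ratio of 0.77 (0.49 to 1.08), and Pfkfb3, with 106 and 187 CPM and a log2 ratio of 0.81 (0.22 to 1.45). The lower genes were Higd1a, Pgk1, Pfkp and Ldha, with Higd1a at 447 and 230 CPM and a log2 ratio of −0.96 (−1.35 to −0.57). Different clusters held most neutrophil-like cells of each library, those led by Ccl3 and by Retnlg with S100a9 in Olaparib + LLY-283 and those led by BC100530 with Cxcr2 and by Retnlg with Pglyrp1 in Combo, and the keratin reading of tumour RNA was higher in Olaparib + LLY-283. An unnamed cluster led by Hcar2 and Ccl3 (27 and 457 cells) and another led by Slfn4 and Acod1 (3 and 113 cells) entered no class. In the first round of clustering, a cluster led by Hcar2 and Ccl3 (653 and 586 cells) had been named neutrophil-like. The cells compared therefore depend on how clusters were named. With that many genes called, the members' counts in neutrophil-like cells say little. The level of Slc16a3 was higher in Combo in all 3 classes compared, although in neutrophil-like cells thinned to 1000 UMIs the interval of its log2 ratio of 0.61 ran from −0.03 to 1.41.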

How the data were processed

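Dissociated tumours from 3 mice per group were pooled into 1 10x Genomics 3′ library each, after red cells were lysed and dead cells removed. The authors deposited filtered UMI count matrices, made with Cell Ranger on mm10; the header of the matrices gives cellranger 6.1.2, and the submitters' processing notes also list bcl2fastq 5.0.1 and Seurat 4.1.0. The counts per gene and cell are not normalised.

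The analysis kept cells in which 200 or more genes were found and fewer than 20% of UMIs were mitochondrial, and scored them with Scrublet. Its automatic threshold called 0 cells in both libraries, so 2055 and 284 cells with the highest scores were removed at an expected 0.8% per 1000 cells (12.8% and 4.77%). Cells were clustered in 2 rounds with scanpy 1.11.5 (2000 variable genes, 30 components, 20 neighbours, Leiden resolution 1.3). The 34 genes and the comparison lists of glucose metabolism, HIF control and HIF targets were taken out of the variable genes and of the leading genes. Clusters were named from marker lists; the naming rules, with a keratin fold of 1.5, were set after seeing the data. Clusters with keratin and other markers (959 and 302 cells) or with keratin and few UMIs (1246 and 775 cells), and unnamed clusters, entered no class.

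UMIs were summed per class and library. CPM intervals are exact Poisson intervals and ratio intervals exact binomial ones, at 95%. Ratios used cells thinned to equal UMIs, genes that summed to 100 or more UMIs, and 0.5 UMIs added to each count; non-members needed 0.1 UMIs per thinned cell for r. With 1 library per group no test was run. Named genes are the members, those at least 1.5-fold apart and, for likeness, the genes with the highest lower r of both libraries. The members and lists were chosen with earlier results of these data known. Figures used matplotlib 3.10.9, and statistics numpy 2.4.6 and scipy 1.17.1.

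On simulated cells drawn from 1 pooled profile, with ratios scaled to their median, 199 of 200 altered genes were returned to within 0.5 (log2). Of 7173 unaltered ones, 65 passed 1.5-fold. The reported ratios were not scaled, and the simulation held no cell states and no levels that vary with depth. These counts are therefore not an error rate for the reported comparison.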

Additional observations from a re-analysis of the deposited data

Results flagged for a closer look

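Cells set aside for their mitochondrial UMIs, and those of keratin clusters with few UMIs, also carried the 34 genes. The level in the unnamed clusters, which entered no class either, was not summed. The 86 and 1586 cells with 20% or more mitochondrial UMIs held 8665 CPM of them in Olaparib + LLY-283 and 8447 CPM in Combo, or 13607 and 15324 per 1000000 UMIs that were not mitochondrial. The clusters with keratin and few UMIs, 1246 and 775 cells, held 15743 and 18194 CPM, or 16095 and 18605 on that scale. Tumour-like cells held 16794 and 18685 per 1000000 on the same scale. Both sets lay above the level that a count of 0 allows, but a sum that includes genes as abundant as Gapdh was bound to, so this says little. There is no control sample to set either set against.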

How the results depend on the processing

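No paired analysis was possible because each group is 1 library, and for the same reason no replicate could be left out. Of the alternatives for the summed level, the counts past 1.5-fold, the median log2 ratio and the median r, 70 values stayed within the counting interval or within 1.5 times the count, 39 moved and 0 reversed. Only the median log2 ratio could be counted as reversed, by a change of sign. The summed CPM of the 34 genes in tumour-like cells was, in Olaparib + LLY-283, 16672 with no mitochondrial limit, 16652 under 10% mitochondrial UMIs, 16691 with doublets kept, 16669 at resolution 0.8, 16647 with 50 components, 16688 with the members among the variable genes and 16568 with keratin clusters that carry other markers counted in. In Combo it was 18503 with no mitochondrial limit, 18609 with doublets kept, 18570 at resolution 0.8, 18492 at resolution 2, 18528 with the members among the variable genes and 18360 with those keratin clusters. The number of members at least 1.5-fold higher in Combo was 2 at resolution 2 (Slc16a3 and Pfkfb3; 315 of 10911 genes in all), 1 with classes from marker UMIs per cell (Pfkfb3; 362 of 11030; 750 cells lay near their limit), 0 thinned to 2000 UMIs (289 of 9542), 1 without thinning (Slc16a3; 645 of 13475), 0 at a fold of 2 (49 of 10865), 8 at a fold lower than 1.5 (of all genes, 1464 higher and 658 lower), 2 with ratios scaled to the median of all genes (263 of 10865), 2 with those keratin clusters (349 of 11010), 2 without cells holding a leukocyte marker UMI (332 of 9363), each time Slc16a3 and Pfkfb3, and 18 in cells of 20000 to 40000 UMIs (597 of 6302). The number lower was 0 with doublets kept (169 of 10959 genes), at a fold of 2 (34), with those keratin clusters (170), with clusters weighted equally (187), without leukocyte marker UMIs (192) and at 20000 to 40000 UMIs (519), so that Pdk4 was no longer called, and 2 at that lower fold. The median log2 ratio was 0.083 without thinning and 0.89 at 20000 to 40000 UMIs. The median r of the 22 glycolysis genes and regulators was 0.125 at 2000 UMIs, 0.25 without thinning and 0.151 with clusters weighted equally in Olaparib + LLY-283, and 0.251 at resolution 2, 0.164 at 2000 UMIs, 0.472 without thinning and 0.235 with clusters weighted equally in Combo. The causes were not tested. The equal weighting, the keratin clusters counted in, the cells without leukocyte marker UMIs, the range of 20000 to 40000 UMIs and the 500 UMIs for neutrophil-like cells were chosen after seeing the data. Fn1 and Apoe were not counted among those leukocyte markers. Over the settings, Slc16a3 ran from 0.56 to 1.01 on the log2 scale, Pfkfb3 from 0.48 to 1.18, Adm from 0.27 to 1.82, Aldoc from 0.45 to 1.32 and Pdk4 from −1.29 to −0.13. Classes of under 100 cells, and genes at low CPM in tumour-like cells such as Pfkfb3 and Pfkfb4, rest on few UMIs.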

Other observations

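Among known HIF targets outside the 34 genes, 2 of 23 measured were at least 1.5-fold higher in tumour-like cells of Combo thinned to 5000 UMIs and 0 were lower, beside 3.38% and 1.77% of all genes measured. Nos2, the inducible nitric oxide synthase, had 4.00 CPM in Olaparib + LLY-283 and 14.3 CPM in Combo, a log2 ratio of 1.84, and Selenbp1 had 4.77 and 8.04 CPM, a log2 ratio of 0.76. Of the genes that control HIF, 0 of 6 were past 1.5-fold in either direction, with Hif1a at 175 and 198 CPM and Arnt at 24.6 and 29.3 CPM. Of 24 genes of the respiratory chain and citric acid cycle 0 were past it, with a median log2 ratio of 0.06, and of 16 further genes of glucose metabolism also 0, with a median of 0.11; at those shares of all genes, 0 in lists of this size says little.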
